A study of Homo sapiens with 4 samples.

Results

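The genes described here encode DEAD and DEAH box helicases, and the measurement is how the helicase DHX36 bound their mRNAs. Members were taken by symbol, as every listed gene named DDX or DHX with a number and, for DDX, at most 1 further letter. DHX36 itself was left out because the cells carried it on a transgene. The rule found 56 of the 26490 listed genes, 41 named DDX and 15 named DHX, and it used no measured value. Of these, 55 are annotated as protein-coding and DDX12P is a pseudogene. DDX11, DDX12P and DDX26B match by name but are not DEAD or DEAH box RNA helicases.

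The study mapped RNA bound by DHX36 in HEK293 cells, a human embryonic kidney line, with PAR-CLIP. In this method the uridine analog 4SU is built into new RNA, light crosslinks it to a bound protein, and the contact is read as a T-to-C conversion. The first line carried tetracycline-inducible FLAG/HA-tagged DHX36, called FH-DHX36 and labelled isoform 2. The other carried FH-DHX36-E335A, labelled isoform 1 with a mutation that abolishes helicase activity. Both lines kept their own DHX36, received tetracycline at 500 ng per ml over 15 h and were then exposed to 365 nm light for 5 min. Each line had 2 biological replicates, but the table gives 1 value per gene and line. Spread between replicates could therefore not be seen, no test between the lines was possible, and intervals given here cover counting error only. Isoform and mutation differ together and cannot be told apart, and a table of bound RNA does not allow a check of the cell line by its markers.

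DEAD and DEAH box proteins are the largest families of RNA helicases. They use ATP to open RNA duplexes or to move proteins off RNA, and they take part in nearly every step in the life of an RNA, from transcription and splicing to ribosome assembly, export, translation and decay. DHX36 is itself a DEAH box helicase, known for binding and resolving G-quadruplexes, which are folds made from runs of guanines. The members are thus mRNAs of relatives of the protein that was precipitated.

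Stretches with guanine runs lay in several of the most heavily bound regions, and such stretches are common in other mRNAs as well. They were searched for as 4 or more runs of at least 2 G separated by 1 to 7 nt of any base, on the sense strand, with matches that do not overlap. A spacer may itself be a G, so a long unbroken run can count as 2 runs. This is so for the last run of the DHX15 and DDX21 stretches below, which otherwise hold fewer than 4 runs. The matches below are a selection, shown because they lie in the region that held the most exonic FH-DHX36-E335A reads of a strongly bound member, and further matches in such regions are not printed. They are written 5′ to 3′ as DNA with guanine runs in capitals.
DHX15, 5'UTR, chr4:24586105-24586118, minus strand: GGGaGGGGtGGGGG
DDX17, 3'UTR, chr22:38881539-38881553, minus strand: GGtGGGGaGGGaGGG
DDX17, 3'UTR, chr22:38880390-38880415, minus strand: GGGagagaGGGatGGtttctgaGGGG
DDX21, 3'UTR, chr10:70743407-70743426, plus strand: GGacttaaGGGagtaGGGGG
DDX27, 3'UTR, chr20:47860497-47860511, plus strand: GGtgtGGtGGtatGG
DDX18, 3'UTR, chr2:118588983-118589002, plus strand: GGctGGGGGGtaGGaagaGG
DDX47, CDS, chr12:12982425-12982450, plus strand: GGGtgctattGGtgtcaGGaacaaGG
Coordinates are on GRCh37. The table counts clusters and reads per region and does not place them, so a match is not a binding site. Of the annotated regions of listed protein-coding genes, 65.0% of 3'UTRs, 53.8% of 5'UTRs and 84.8% of coding regions hold at least 1.

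The FH-DHX36 PAR-CLIP listed 2160413 crosslinked reads in 16742 clusters, and the FH-DHX36-E335A PAR-CLIP listed 8752127 in 60208. Reads are therefore given as counts and as RPM, the counts scaled to 1000000 reads in each PAR-CLIP. A cluster is a stretch of RNA where such reads pile up and carry these conversions. The lowest count listed for a gene with a cluster was 6 reads in FH-DHX36 and 5 in FH-DHX36-E335A, so a gene at 0 may have had reads that formed no cluster. NXPM, the deposited normalized score, is RPM divided by mRNA abundance.

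Helicase mRNAs carried clusters more often than the average listed gene. A cluster was listed for 27 of the 56 members in FH-DHX36, where 22.4% of all listed genes and 31% of protein-coding genes had one. In FH-DHX36-E335A it was 38 of 56, against 34.5% and 47.7%. These backgrounds, here and below, count genes whatever their expression. The mRNA abundance implied by NXPM is available only for genes with a cluster. Its median in FH-DHX36 was 10.9 for bound members and 7.30 for all bound genes. In FH-DHX36-E335A the medians were 8.15 and 5.89. The part of expression in these counts was not tested. All 27 members bound in FH-DHX36 were also bound in FH-DHX36-E335A, 11 had clusters in FH-DHX36-E335A alone and 18 had none in either. Beside these 11 of 38, 37.9% of all genes with a FH-DHX36-E335A cluster had none in FH-DHX36, and the difference was not tested.

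As a group the members took a similar share of each PAR-CLIP. They held 96 clusters and 12081 reads in FH-DHX36, which is 0.559% of all reads (95% Wilson interval, 0.549 to 0.569). In FH-DHX36-E335A they held 342 clusters and 51823 reads, or 0.592% (0.587 to 0.597). The reads were concentrated on few members, since the 5 highest held 64.1% of them in FH-DHX36 and 59.0% in FH-DHX36-E335A.

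**Figure D1:**
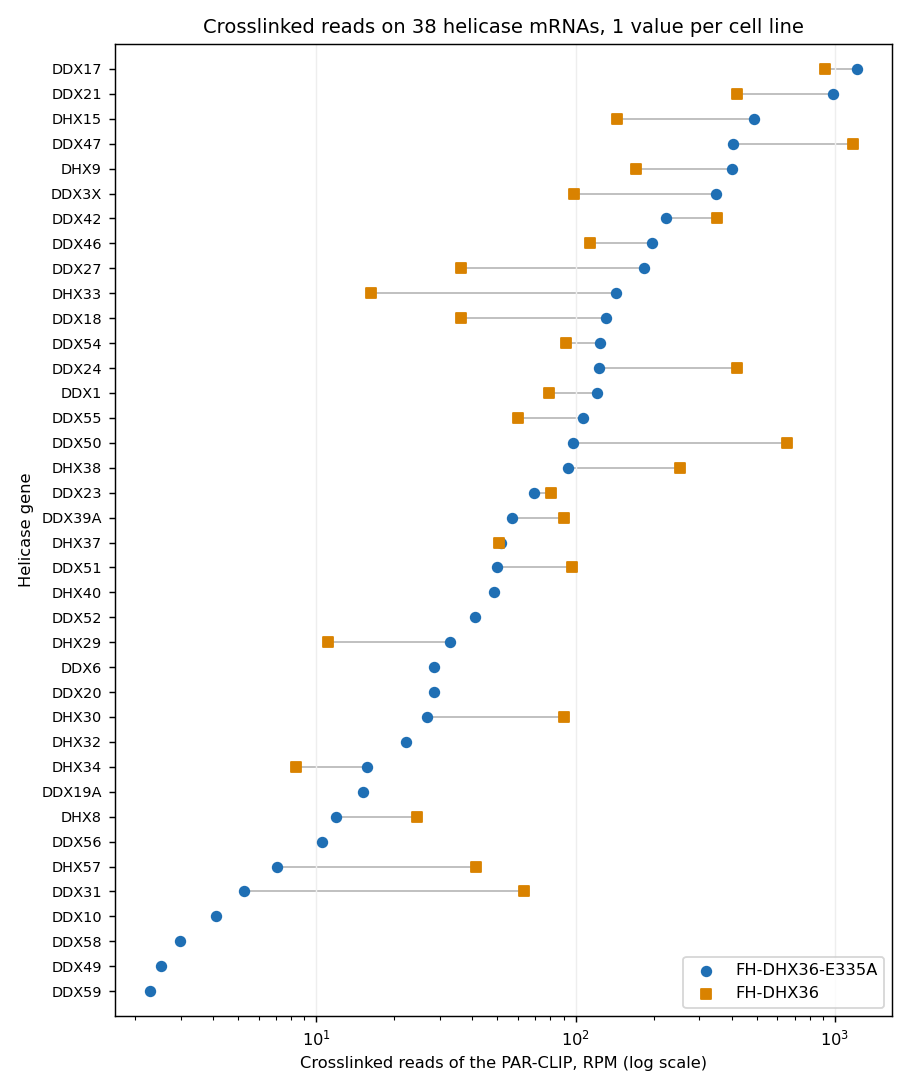
Crosslinked reads of each PAR-CLIP in RPM, on a log axis, for the 38 helicase mRNAs with a cluster, with circles for FH-DHX36-E335A and squares for FH-DHX36 and 1 deposited value per point. DDX17 led in FH-DHX36-E335A and DDX47 in FH-DHX36, and the 11 members without a square had no cluster in FH-DHX36.

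Among helicases of transcription and general RNA processing, DDX17, a coregulator of transcription and splicing, had the most reads of any member in FH-DHX36-E335A. It held 30 clusters and 10674 reads there, 1220 RPM, more than 99.2% of all genes with a cluster. In FH-DHX36 it had 17 clusters and 1980 reads, 916 RPM. The position of these reads differed between the lines. Of the FH-DHX36-E335A reads, 7027 lay in the 3'UTR and 2824 in the CDS, whereas the FH-DHX36 reads were 1115 in the CDS, 492 intronic, 283 in the 3'UTR and 90 of other annotations.

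DDX5, the closest relative of DDX17 and its partner in many complexes, had no cluster in either line. Of the 32 listed protein-coding genes within 1 Mb, 16 had a FH-DHX36-E335A cluster, although the nearest ones, POLG2, MILR1 and CEP95, had none. Of the 20-nt windows of the transcripts, 0.819% for DDX5 and 1.64% for DDX17 occurred in another annotated gene. An abundance could be recovered only for genes with a cluster, so the level of DDX5 mRNA in these cells is not known from the table.

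DHX9, a nuclear helicase of transcription and RNA processing, had 13 clusters and 3519 reads in FH-DHX36-E335A and 5 clusters and 371 reads in FH-DHX36. Its largest class in FH-DHX36-E335A lay outside the 4 annotations of 5'UTR, CDS, 3'UTR and intron, with 1443 reads, beside 1407 CDS reads and 638 in the 3'UTR. A processed copy, DHX9P1, shares 20.9% of its 20-nt windows, and the part of such copies in these reads was not tested. DDX1, which acts in tRNA ligation and other RNA processing, had 11 clusters and 1060 reads in FH-DHX36-E335A, 807 of them outside the 4 annotations, and 1 CDS cluster of 170 reads in FH-DHX36. DHX34, a factor of nonsense-mediated decay, had 1 intronic cluster in each line, with 137 and 18 reads.

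Ribosome biogenesis was the function with the most members, 15 by the list used here. All 15 had a cluster in FH-DHX36-E335A, as did 47.7% of protein-coding genes, and 11 had one in FH-DHX36, as did 31%. Together they held 39.9% of the members' reads in FH-DHX36-E335A and 44.1% in FH-DHX36. DDX21, a nucleolar helicase of rRNA transcription and processing, came first in FH-DHX36-E335A with 29 clusters and 8598 reads, which split into 3747 in the 3'UTR, 2500 CDS reads and 2351 of other annotations. In FH-DHX36 it had 10 clusters and 908 reads, of which 752 were CDS reads and 156 were 3'UTR reads.

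DDX47, which acts in early rRNA processing, had the most reads of any member in FH-DHX36. All 2539 of them lay in 1 CDS cluster, and this cluster alone made up 21.0% of the members' reads in that line. In FH-DHX36-E335A the same mRNA had 3532 reads in 15 clusters, with 2968 reads over 9 CDS clusters and 443 in the 3'UTR. The only G-run match in its CDS of 1368 nt lies near the stop codon, at position 1305, and is printed above. Of coding regions within 10% of that length, 89.1% hold at least 1 match, with a median of 4. Whether the cluster lies at the match is not known.

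Several ribosome biogenesis mRNAs were bound almost wholly in the 3'UTR by FH-DHX36-E335A. DDX27, a factor of rRNA 3' end formation, had 1574 of its 1607 reads in 1 cluster of a 3'UTR of only 239 nt. DHX33, which acts in rRNA synthesis, had 1208 of 1252 reads in the 3'UTR, in 14 clusters. DDX18, a factor of large subunit assembly, had 1055 of 1144 reads there, and DDX51, also of large subunit assembly, had 407 of 434. In FH-DHX36 these 4 mRNAs had 78, 35, 78 and 210 reads, with 78, 35, 45 and 175 of them in the 3'UTR.

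The remaining members of this list were bound more in the CDS or less strongly. DDX54, a nucleolar coregulator, had 1083 reads in FH-DHX36-E335A, with 596 in the 3'UTR and 418 in the CDS. DDX24 had 1076 reads there with 718 in the CDS, and 904 reads in FH-DHX36 with 840 in the CDS. DDX55 had 936 reads, DHX37 452 and DDX52 358 in FH-DHX36-E335A, and all of those of DDX52 lay in the 3'UTR. DDX56, DDX31, DDX10 and DDX49 had between 22 and 92 reads there. DDX31 was the only 1 of these last 4 with clusters in FH-DHX36, where 137 reads lay in 3 intronic clusters.

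DDX50, the paralog of DDX21 and its neighbour on chromosome 10, was bound differently in the 2 lines. In FH-DHX36 it had a single cluster of 1412 reads outside the 4 annotations, the third-highest count of any member. In FH-DHX36-E335A it had 10 clusters and 855 reads, with 534 in the CDS and 157 in the 5'UTR, and none in its 3'UTR of 217 nt. Of the 20-nt windows of DDX50, 25.8% also occur in the pseudogene DDX50P1, and its part in this cluster was not tested.

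Splicing helicases were bound in both lines, but not all of them. The same members had clusters in each line. Of protein-coding genes, 31% had a cluster in FH-DHX36 and 47.7% in FH-DHX36-E335A. Of the 4 DEAD box members, DDX42, DDX46 and DDX23 had clusters and DDX41 had none. Of the 5 DEAH box members, DHX15, DHX38 and DHX8 had clusters and DHX16 and DHX35 had none. DHX15, which takes apart the spliceosome after splicing, stood out by its 5'UTR. A single 5'UTR cluster held 2427 of its 4268 reads in FH-DHX36-E335A, and a single 5'UTR cluster held 251 of its 312 reads in FH-DHX36. That 5'UTR is 161 nt long and contains the G-run match printed above at position 60. It was the only member with a 5'UTR cluster in FH-DHX36, where 18.6% of all bound genes had one, and 1 of 6 in FH-DHX36-E335A, where 20.4% did. The others were DDX3X, DDX24, DDX50, DHX38 and DDX6, with 30 to 157 reads in the 5'UTR.

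DHX38, a helicase of the second catalytic step of splicing, had a high number of reads for its abundance. It had 3 clusters and 546 reads in FH-DHX36 and 5 clusters and 818 reads in FH-DHX36-E335A. Its NXPM of 67.1 in FH-DHX36 was the highest of any member in either line. DDX42, which associates with the U2 snRNP, followed in FH-DHX36 with 53.9, from 758 reads. DDX46, which helps the U2 snRNP onto the branch site, had 245 reads in FH-DHX36 and 1729 in FH-DHX36-E335A. DDX23, a helicase of the tri-snRNP, had 173 and 605, and DHX8, which releases the spliced mRNA, had 53 and 104.

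Among helicases of translation and cytoplasmic mRNA, DDX3X, which aids initiation on structured mRNAs, had 29 clusters and 3049 reads in FH-DHX36-E335A. They were spread over the 5'UTR with 146 reads, the CDS with 704, the 3'UTR with 1086 and other annotations with 1113. In FH-DHX36 DDX3X had 214 reads, 113 of them intronic and none in the 3'UTR. Of its windows, 27.1% occur in another annotated gene, pseudogenes included. DHX29, which helps ribosomes scan, had 287 and 24 reads. DDX6, a repressor of translation and activator of decapping, had 249 reads in FH-DHX36-E335A, 131 of them in the 5'UTR, and none in FH-DHX36. DDX3Y, on chromosome Y, had no cluster in either line. Of the 3 listed protein-coding genes within 1 Mb of it, 0 had a FH-DHX36-E335A cluster. Its lack of clusters therefore cannot be told apart from a property of that region.

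For mRNA export, DDX39A was bound and its close relative DDX39B was not. DDX39A had 499 reads in FH-DHX36-E335A and 195 in FH-DHX36, at the highest recovered abundance of any bound member, 88.9. Its NXPM was accordingly among the lowest, at 0.641 and 1.02. DDX39B lies in the major histocompatibility region of chromosome 6, where few genes had any cluster: of 97 listed protein-coding genes within 1 Mb, 2 had one in FH-DHX36-E335A, against 47.7% of protein-coding genes overall. The same held around DHX16, with 2 of 67. For both members the absence of clusters therefore cannot be told apart from a property of that region in this table. DDX19A had 132 reads in FH-DHX36-E335A, all in the 3'UTR, and its neighbour DDX19B had none. The 2 transcripts overlap in sequence, with 33.4% of the windows of DDX19A found in DDX19B, so their counts are uncertain.

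In FH-DHX36-E335A a cluster was listed for 1 of 4 helicases of innate RNA sensing and 0 of 3 of the germ line, against 47.7% of protein-coding genes. None of them had a cluster in FH-DHX36, against 31%. No abundance could be recovered for members without a cluster, so whether they are expressed in these cells is not known here. DDX58, which encodes RIG-I, had 1 CDS cluster of 26 reads in FH-DHX36-E335A, at a recovered abundance of 0.426, and DHX58, DDX60 and DDX60L had none. DDX4, DDX43 and DDX53 of the germline list and DDX25 had none. Of the mitochondrial list, DHX30 had 233 reads in FH-DHX36-E335A and 195 in FH-DHX36, and DDX28 had none. DDX11, DDX12P and DDX26B had none. DDX11 shares 60.5% of its windows with other annotated genes, so its counts are uncertain.

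The remaining members bound in FH-DHX36-E335A alone were DHX40 with 424 reads, DDX20, a partner of the SMN complex, with 248, DHX32 with 195 and DDX59 with 20. At an equal share of reads, FH-DHX36 would have listed about 105 reads on DHX40, 88.4 on DDX52, 61.5 on DDX6 and 61.2 on DDX20. The numbers were 48.1 for DHX32, 32.6 for DDX19A and 22.7 for DDX56. For DDX10, DDX58, DDX49 and DDX59 it would have listed between 4.94 and 8.89, which is close to the lowest counts in the table. For these last 4, absence from FH-DHX36 was not distinguishable from the smaller number of crosslinked reads. For the others the part of the smaller number of reads was not tested. The numbers are totals per gene, and DHX40 and DDX20 each had theirs spread over 9 clusters in FH-DHX36-E335A. DHX57 had 62 reads in FH-DHX36-E335A and 89 in FH-DHX36.

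Members' reads were divided among regions differently in the 2 lines. In FH-DHX36-E335A, the 3'UTR held 50.5% of their exonic reads, the CDS 42.3% and the 5'UTR 7.12%. In FH-DHX36 the 3'UTR held 13.5%, the CDS 83.9% and the 5'UTR 2.67%. Over all genes the 3'UTR held 71.9% in FH-DHX36-E335A and 51.4% in FH-DHX36. By clusters the 3'UTR share was 41.1% and 31.6% in the members and 59.2% and 51.5% over all genes, so the step between lines was much smaller by clusters and of similar size in both sets. Leaving out DDX47, with its single large CDS cluster, changed the members' 3'UTR share in FH-DHX36 to 18.4% and their CDS share to 77.9%. Introns held a cluster in 8 of 27 members in FH-DHX36, against 24.3% of bound genes, and in 9 of 38 in FH-DHX36-E335A, against 23.9%. Clusters outside the 4 annotations were listed for 6 of 27 and 20 of 38 members, against 20.9% and 45.4%.

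**Figure D2:**
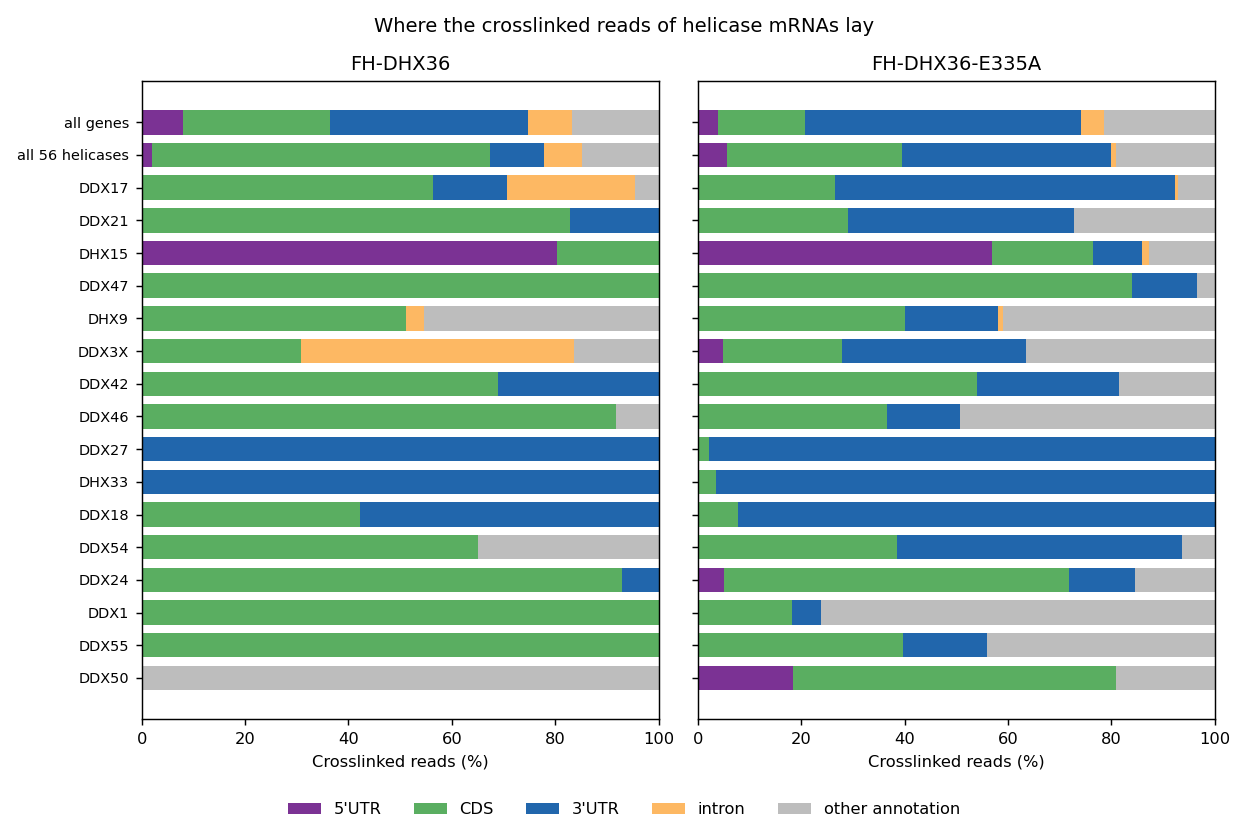
Percent of crosslinked reads in the 5'UTR, CDS, 3'UTR, introns and other annotations for all genes, all 56 helicases and the 16 members with the most FH-DHX36-E335A reads, in FH-DHX36 on the left and FH-DHX36-E335A on the right. DDX27 and DHX33 were bound almost wholly in the 3'UTR in FH-DHX36-E335A, and in FH-DHX36 each had only 1 cluster, in the 3'UTR, of 78 and 35 reads. DHX15 was bound mainly in the 5'UTR in both lines. DDX17 and DDX21 were bound mainly in the CDS in FH-DHX36 and mainly in the 3'UTR among exonic reads in FH-DHX36-E335A.

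The same could be seen gene by gene. Of the 24 members with exonic reads in both lines, 17 had a higher 3'UTR share in FH-DHX36-E335A, 5 had a higher one in FH-DHX36 and 2 were equal. Over all 4790 such genes the percentages were 50.8%, 27.9% and 21.2%. The 3'UTR held over 50% of exonic reads in 13 of 36 members in FH-DHX36-E335A, or 5 when counted by clusters, against 64% of all genes by reads, and in 6 of 24 in FH-DHX36, against 47.8%. The CDS held over 50% in 21 of 36 and in 17 of 24, against 28.2% and 38.5%. In 5 of 24 the main region was the 3'UTR in FH-DHX36-E335A and the CDS in FH-DHX36, against 14.1% of all genes. The reverse was found for 1 member, DHX8, against 3.09%.

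Helicase mRNAs have long coding regions, so shares were also set beside the length of each region. In the members with an exonic FH-DHX36-E335A cluster, the CDS made up 63.1% of the exonic length of the canonical transcripts, against 42.5% over all genes. Relative to length, the members' 3'UTR held 1.48 times its share of FH-DHX36-E335A reads and the CDS 0.671 times, against 1.37 and 0.539 over all genes. In FH-DHX36 the members' 3'UTR held 0.427 times its share and the CDS 1.27 times, against 0.977 and 0.896. By clusters in place of reads, the members' 3'UTR in FH-DHX36 held 1.00 times its share of length, against 0.978 over all genes, and in FH-DHX36-E335A 1.20 times, against 1.12. Whether length accounts for any of these differences was not tested.

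Some members took a larger share of reads in 1 line. The share ratio is the gene's share of reads in FH-DHX36-E335A over that in FH-DHX36, and it was called at 2 or more or at 0.5 or less. All 27 members bound in both lines reached the minimum of 50 reads summed over the lines. It was at least 2 in 8 members, where 28.8% of all genes tested were, and at most 0.5 in 8 members, where 24.3% were. Both counts are near the background. The median ratio over all genes in both lines was 1.09, a shift of 0.118 on the log2 scale. Relative to that median the counts were 8 and 9.

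The ratio was highest for DHX33, at 8.83 (95% exact counting interval, 6.31 to 12.7), followed by DDX27 at 5.09 (4.05 to 6.47), DDX18 at 3.62 (2.88 to 4.61) and DDX3X at 3.52 (3.06 to 4.06). The first 3 are ribosome biogenesis mRNAs bound almost wholly in the 3'UTR by FH-DHX36-E335A. DDX51 and DDX52 were bound in that way too. DDX51 had a ratio of 0.510, and DDX52 had no ratio because it lacked a cluster in FH-DHX36. DHX15 at 3.38, DHX29 at 2.95, DHX9 at 2.34 and DDX21 at 2.34 completed the members with a ratio of at least 2. The interval of DHX29, 1.94 to 4.68, extended below 2.

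The ratio was lowest for DDX31, at 0.0829 (0.0580 to 0.117), followed by DDX50 at 0.149 (0.137 to 0.163) and DHX57 at 0.172 (0.122 to 0.240). For DDX31 and DDX50 all reads in FH-DHX36 lay outside the exonic annotations. DDX24 at 0.294, DHX30 at 0.295, DDX47 at 0.343, DHX38 at 0.370 and DHX8 at 0.484 were the others, and DDX51 lay just outside. The interval of DHX8, 0.345 to 0.688, extended above 0.5. Of these, DDX24, DHX30, DDX47, DHX38 and DHX57 had more reads in the CDS than in any other region in FH-DHX36. This was common among members, since the CDS held most exonic reads in 17 of the 24 with exonic reads in that line. Of the members with a ratio of at least 2, DDX21, DHX9 and DHX29 also had their most FH-DHX36 reads in the CDS. DHX33, DDX27, DDX18, DDX3X and DHX15 did not. DHX37, at 1.02 (0.829 to 1.27), was the member nearest to an equal share, and DDX17 lay at 1.33 (1.27 to 1.40).

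**Figure D3:**
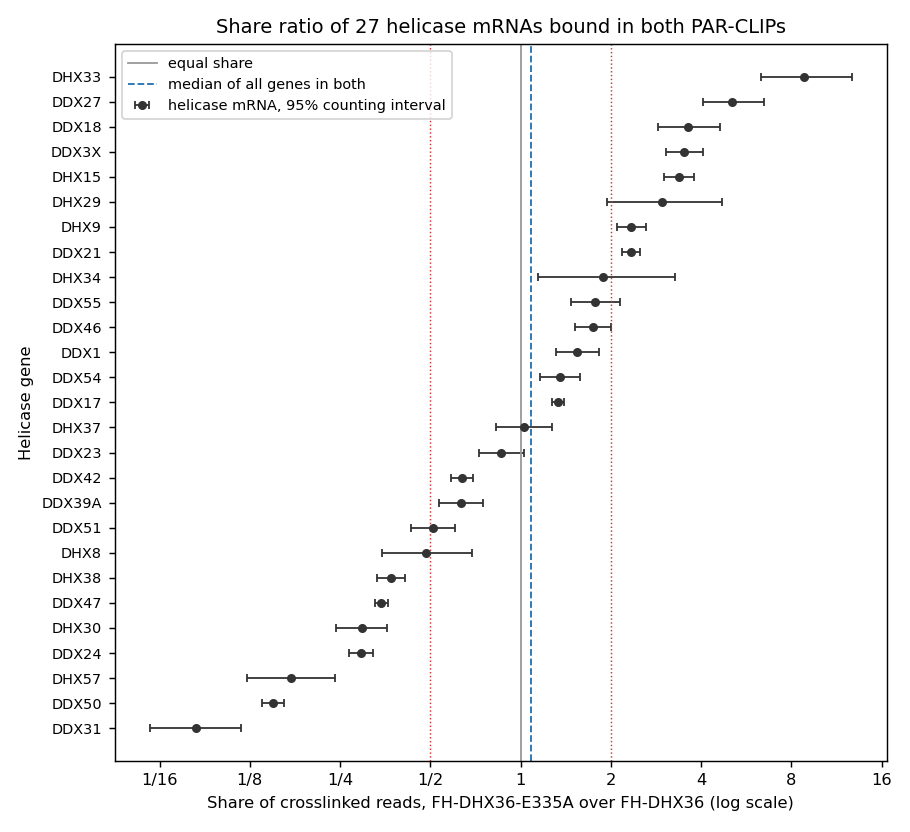
Share of crosslinked reads in FH-DHX36-E335A over that in FH-DHX36 for the 27 helicase mRNAs bound in both, on a log axis, with bars for the 95% counting interval, dotted lines at 2 and 0.5 and a dashed line at the median of all genes, 1.09. The ratios ran from 0.0829 for DDX31 to 8.83 for DHX33, with 8 members at or past each dotted line.

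Relative to mRNA abundance the members were ordinary targets. Their median NXPM was 7.30 in FH-DHX36, where that of all bound genes was 7.84, and 7.40 in FH-DHX36-E335A, where it was 5.66. None exceeded 100, a level passed by 6.78% and 5.18% of all bound genes. Above 25 lay 6 of 27 members in FH-DHX36, against 24.6%, and 5 of 38 in FH-DHX36-E335A, against 20.3%. Above 1 lay 26 of 27 and 32 of 38, against 85.6% and 81.6%. The 5 highest in FH-DHX36 were DHX38, DDX42, DDX50 at 42.8, DDX47 at 42.6 and DDX17 at 35.0. In FH-DHX36-E335A they were DDX21 at 48.6, DDX17 at 46.6, DDX42 at 34.4, DHX9 at 31.3 and DDX46 at 29.3. DDX17 and DDX42 were among the 5 in both.

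By number of clusters 4 members stood high. DDX17, DDX21, DDX3X and DHX15 had more than 20 clusters in FH-DHX36-E335A, as did 1.52% of all listed genes and 4.4% of bound genes. No member had more than 20 in FH-DHX36, where 0.0982% of listed genes and 0.438% of bound genes did.

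**Figure D4:**
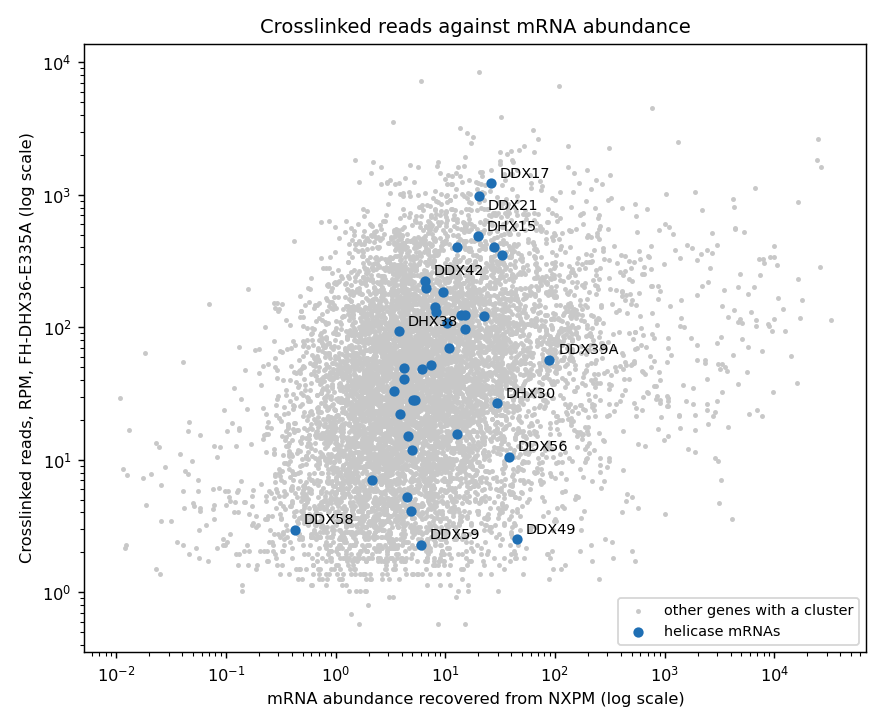
Crosslinked reads in FH-DHX36-E335A, in RPM, against recovered mRNA abundance, both on log axes, with the 38 bound helicase mRNAs in blue and other genes with a cluster in grey, for the 9074 of 9131 bound genes with an abundance of at least 0.01. DDX17 and DDX21 lie high for their abundance, and DDX49, DDX56 and DDX39A lie low.

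G-run matches were about as common in helicase mRNAs as in other mRNAs. A match was found in the 3'UTR of 37 of 55 members, 67.3%, against 65.0% of protein-coding genes, at 1.78 per kb against 1.84. In the 5'UTR it was 38.2% of members against 53.8%, and in the CDS 98.2% against 84.8%. The members' 5'UTRs were shorter, with a median of 87 nt against 136 nt, and their coding regions were longer, with 2223 nt against 1308 nt. With runs of at least 3 G, 6 members had a 3'UTR match, 10.9% against 14.3%.

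Members with a 3'UTR match had a 3'UTR cluster more often than those without, by a gap of about the same size as over all genes. Of the 27 members with a FH-DHX36-E335A cluster and a 3'UTR match, 21 had a 3'UTR cluster, and of the 11 without a match 6 did. Over all protein-coding genes these shares were 84.6% and 63.6%, and in the members they were 77.8% and 54.5%. The median number of 3'UTR reads was 151 in members with a match and 60 in those without. The 3'UTRs with a match were also longer, with a median of 1397 nt against 427 nt in the members. Single members varied widely. DDX51 had the most matches, 17 in 2678 nt, a number reached by 4.76% of 3'UTRs within 10% of its length, and 407 reads there. DDX3X had no match in 2555 nt and 1086 reads, although 84.9% of 3'UTRs of about that length hold at least 1. The 3'UTR of DDX27, with 1574 reads, holds 1 match in 239 nt, and 34.7% of 3'UTRs of about that length hold at least 1. DHX15 has no match in its 3'UTR of 449 nt, and the match in its 5'UTR is of a kind found in 61.9% of 5'UTRs of about its length.

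**Figure D5:**
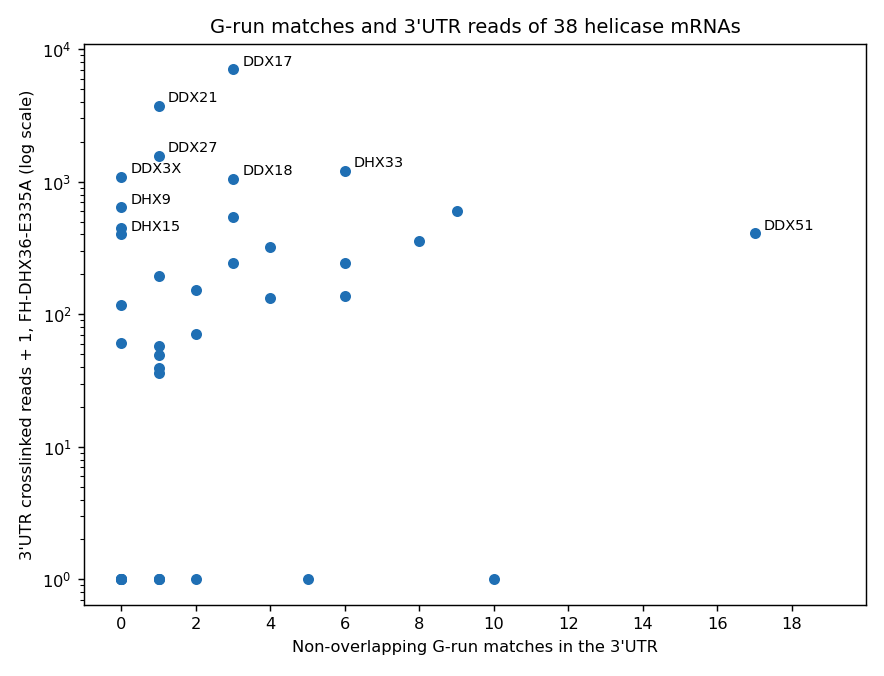
Crosslinked reads in the 3'UTR in FH-DHX36-E335A, plus 1 and on a log axis, against the number of G-run matches in the 3'UTR of the canonical transcript, for the 38 bound helicase mRNAs. DDX17 holds 7027 reads with 3 matches, DDX3X 1086 with none and DDX51 407 with 17.

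Helicases outside the DDX and DHX names were taken as a list of 16 for comparison. A cluster was listed for 11 of them in FH-DHX36, against 31% of protein-coding genes, and for 14 in FH-DHX36-E335A, against 47.7%. The most reads in FH-DHX36-E335A lay on EIF4A2, a translation initiation factor, with 2940, then SKIV2L2, a cofactor of the nuclear exosome, with 1573, and EIF4A1 with 1539. Over all 16 together, the 3'UTR share of exonic reads was 56.3% in FH-DHX36-E335A and 32.4% in FH-DHX36.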

How the data were processed

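PAR-CLIP was done by the authors with 2 biological replicates per line. Reads were mapped to hg19, clusters were called with PARalyzer in PARpipe, and clusters were categorized with GENCODE v19. For these programs, versions are not given in the sources used here. Crosslinked read counts and numbers of clusters were deposited as counts without normalization, with 1 value per gene and line. NXPM is a score deposited by the authors, and it equals reads scaled to 1000000 over mRNA abundance plus 0.001, from which abundance was recovered. Whether the table holds the intersection of the replicates was not tested. All columns of values were mapped to a line.

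Members, lists and rules were chosen with earlier results of these data known. Named are the 10 members with the most reads and the 5 with the highest NXPM per line, members called by share ratio, and the remaining members by cluster status. Additional members were named for their place in the role lists after their values were seen. Shares carry 95% Wilson intervals, and share ratios carry 95% exact (Clopper-Pearson) intervals conditional on the summed reads. PCR copies are not independent molecules, so intervals cover counting error only. Regions and G runs were taken from canonical transcripts of GENCODE release 44 on GRCh37, the build of hg19 with a later annotation, which placed all 56 members. The names RIGI for DDX58 and INTS6L for DDX26B came from RefSeq synonyms of GRCh38.p14, used for names alone. Calculations used Python 3.11.15, pandas 2.3.3 and scipy 1.17.1, and were tested on simulated data.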

Additional observations from a re-analysis of the deposited data

How the results depend on the processing

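Alternatives were computed 36 times, 30 of them planned, and 23 stayed within the limits set for them. With exonic reads only, the members' share was 0.582% in FH-DHX36 and 0.638% in FH-DHX36-E335A, and by clusters it was 0.573% and 0.568%. The number of members bound mainly in the 3'UTR in FH-DHX36-E335A was 5 by clusters. At a ratio of at least 3, 5 members were higher in FH-DHX36-E335A and 5 in FH-DHX36. Runs of at least 3 G were found in the 3'UTR of 6 members. Leaving out DDX47 or DDX17 was chosen after seeing the data. Without DDX47 the CDS share of exonic reads in FH-DHX36 was 77.9%, and the 3'UTR share was 18.4% in FH-DHX36 and 53.9% in FH-DHX36-E335A. Without DDX17 the 3'UTR share was 12.3% and 44.1%. No paired analysis was possible because the table has 1 value per gene and line, and leaving out a replicate was not possible for the same reason. FH-DHX36 listed fewer crosslinked reads, which limits what it could show of members with few reads.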
